A study of Homo sapiens with 6 samples.

Results

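ASNS, PSAT1, MTHFD2, ALDH1L2, SLC7A11, SLC3A2, WARS, TRIB3, ATF3 and STC2 are target genes of the transcription factor ATF4 that serve amino acid synthesis, amino acid uptake, mitochondrial folate metabolism and tRNA charging, or that answer cell stress. They were chosen by name, and all 10 were found among the 4101 genes of the deposited RNA-seq table. The table holds only genes that the authors had marked as differing between the same libraries, so each of the 10 had passed a selection on these data, and genes outside it were not analysed here. ATF4 itself was not analysed here.

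The cells were SH-SY5Y, a neuroblastoma line of wild-type genotype per the labels, used by the study as a model of dopaminergic neurons. The METH-treatment group received 2 mM methamphetamine (METH) for 24 h, and the PBS-treatment group received the same volume of phosphate-buffered saline (PBS) for 24 h, in otherwise shared culture conditions. There were 3 libraries in each group, named here PBS 10, PBS 11 and PBS 12 and METH 1, METH 2 and METH 3 after the columns of the table. The labels put the time at day 0, and the 24 h comes from the treatment protocol. A single cell line was used, and nothing in the sources used here says whether the libraries of a group came from separate cultures, so the p-values below measure only the spread between these libraries, which may be technical.

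ATF4 is the effector of the integrated stress response. In this response, kinases that sense unfolded protein, amino acid shortage, heme shortage or double-stranded RNA phosphorylate the initiation factor eIF2, general translation falls, and translation of the ATF4 mRNA rises. ATF4 pairs with other basic leucine zipper proteins, binds C/EBP-ATF response elements and raises transcription of genes that make, import and load amino acids onto tRNA. When the stress lasts, it also raises regulators such as ATF3 and TRIB3 that limit the response or lead to cell death.

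Levels are given as reads of a gene per M reads of its library (CPM), which are not corrected for gene length. Differences between groups are on the log2(CPM + 0.1) scale, fitted with limma across all 4101 genes, and a gene was called when its 2-sided p, adjusted by the Benjamini-Hochberg method over the table, was under 0.1. Library totals implied by the values ran from 85.67 to 110.77 M reads. Of 15 sympathoadrenal neuroblastoma markers, 7 were in the table, among them GATA2, DDC and CHGB, with a summed level of 956 to 1050 CPM in the PBS libraries and 880 to 979 CPM in the METH libraries. Of 8 fibroblast or mesenchymal markers, TWIST1, SNAI2 and VIM were in the table, with a sum of 455 to 743 CPM with PBS and 794 to 1150 CPM with METH. No Schwann or glial marker of 5 was in it, and of 3 blood markers only CD14 was, below 1 CPM throughout. Since the table holds only genes marked as differing, a marker's absence from it does not show whether the gene was expressed. The part of these markers in the results below was not tested.

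The promoters of ASNS and ATF3 are shown because these 2 genes carry, before their start, the core letters of the C/EBP-ATF response element. RefSeq windows of GRCh38.p14, running from 250 bases before to 50 bases after a start, were matched by symbol for 8 of the 10 genes. The parts before the start are printed 5′ to 3′ in the direction of the gene, for ASNS from chr7:97872409-97872658 on the minus strand and for ATF3 from chr1:212565157-212565406 on the plus strand. Capitals mark the core, searched as TGATGNAA on both strands.
ASNS: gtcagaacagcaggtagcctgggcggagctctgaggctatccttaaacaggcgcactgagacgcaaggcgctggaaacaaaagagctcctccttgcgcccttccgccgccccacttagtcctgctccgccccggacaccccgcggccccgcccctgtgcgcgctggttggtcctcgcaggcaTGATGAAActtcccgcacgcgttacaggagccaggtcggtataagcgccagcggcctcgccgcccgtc
ATF3: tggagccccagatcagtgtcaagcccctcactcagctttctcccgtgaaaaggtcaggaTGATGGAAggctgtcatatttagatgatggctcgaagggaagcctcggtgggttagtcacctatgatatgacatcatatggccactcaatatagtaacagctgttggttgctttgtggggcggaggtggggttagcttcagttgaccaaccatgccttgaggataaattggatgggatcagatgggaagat

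In ASNS the match was TGATGAAA, 68 bases before the start, and in ATF3 it was TGATGGAA, 191 bases before the start. Another match, read on the other strand as TTACATCA, lay 37 bases after the start in SLC3A2. The windows of PSAT1, MTHFD2, WARS, TRIB3 and STC2 held no such letters. Of all 27305 RefSeq windows, 1003 (3.67%) held the core, as did 56 of the 2951 windows of table genes (1.9%). The longer form TGATGCAAT was in 0.264% of all windows, the cAMP response element TGACGTCA in 1.98% and the endoplasmic reticulum stress element in 0.0806%, and none of these 3 was found in the 8 windows. These are matches of letters in 1 annotated start per gene, and other transcripts of these genes begin elsewhere. The ATF3 window lies at the 5′ end of a gene span that runs to chr1:212620777, and starts further inside that span were not searched.

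The 10 genes did not move as a block. Relative to PBS, the METH-treatment group had lower levels of 6 of them past the test, namely PSAT1, MTHFD2, ALDH1L2, SLC7A11, WARS and STC2, and a higher level of ATF3. The other 3, ASNS, TRIB3 and SLC3A2, did not pass. By sign alone 8 were lower and 2 higher, with a median log2 fold change of -0.69, against 0.11 over all genes of the table, of which 49.6% were lower. Of all genes tested, 35.8% were called lower and 33.3% higher, so that 6 of 10 and 1 of 10 stand beside those shares. In bulk RNA, a smaller number of cells of a kind and less RNA per cell cannot be told apart.

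**Figure D1:**
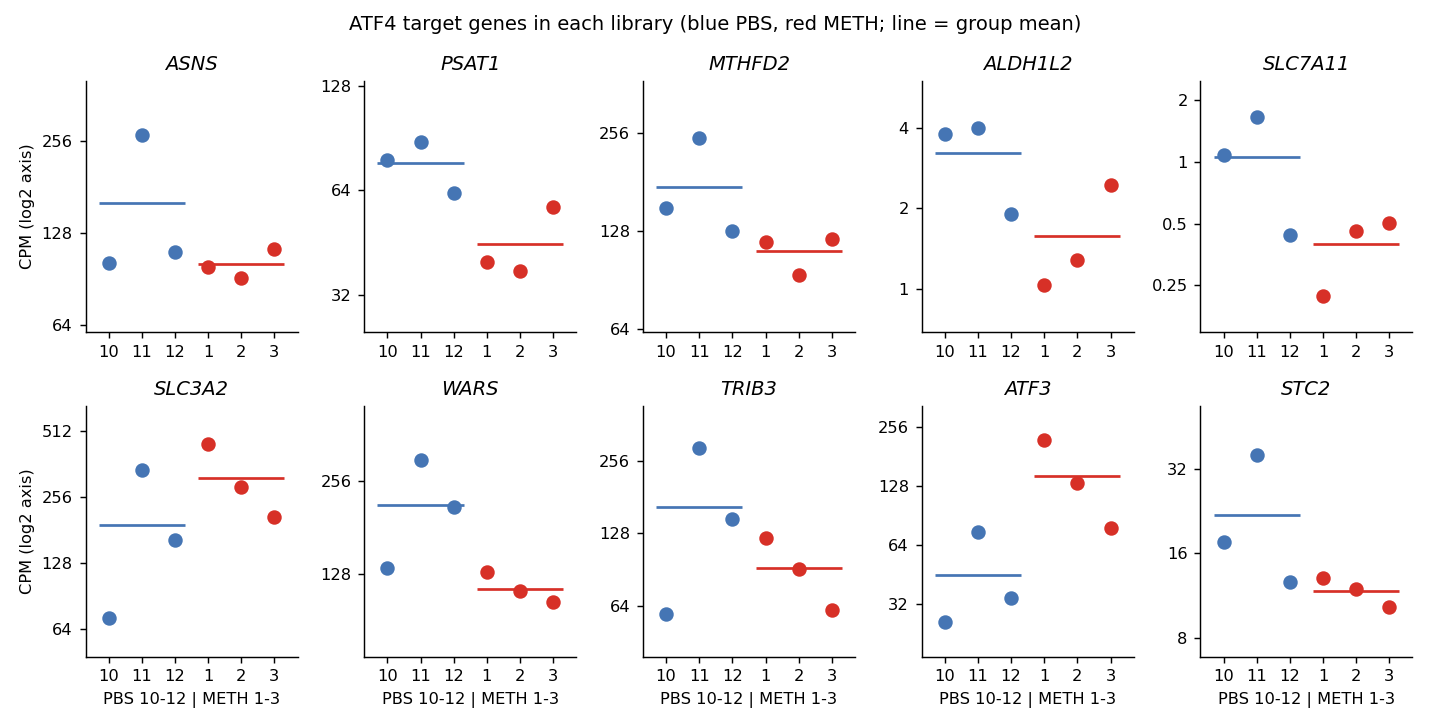
Level of each of the 10 genes in the 6 libraries, in CPM on a log2 axis whose range differs between panels (blue points PBS 10 to 12, red points METH 1 to 3, lines group means). PBS 11 is the highest blue point in all 10 panels, and the red points of ATF3 lie above all blue points while those of PSAT1, MTHFD2 and WARS lie below them.

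Apart from that of ATF3, each call was lost when at least 1 of the 6 libraries was left out. No gene of the 10 had an adjusted p under 0.1 when the adjustment ran over an assumed 20000 genes instead of the 4101 selected ones, a rule that 10.0% of the table passed, and 5 had an unadjusted p under 0.05. Without PBS 11, 2 genes were called lower (PSAT1 and WARS) and 2 higher (ATF3 and SLC3A2), beside 1368 and 1551 of the 4101 table genes. Without METH 1 or without METH 2, none of the 10 was called lower by limma (2 and 1 of them had an unadjusted p under 0.05) and ATF3 was still called higher. Lower calls fell over the whole table too, from 1467 to 628 without METH 1 and to 563 without METH 2. DESeq2 and edgeR with TMM, on reads recovered from the CPM values of all 6 libraries, called 8 and 7 lower, and both called ATF3 higher. They called 1653 and 1661 of the 4101 table genes lower. With 3 libraries against 3, an exact 2-sided permutation test cannot give a p below 0.1, and it gave that value to PSAT1, MTHFD2, WARS and ATF3, the genes whose groups did not overlap. Such separation was found lower with METH in 33.0% of the table and higher in 31.0%.

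Serine and folate enzymes were lower. PSAT1, the aminotransferase of serine synthesis from a glycolytic intermediate, lies at chr9:78297143-78330093 on the plus strand (GRCh38). Its level was 78.5, 88.2 and 62.9 CPM in PBS 10, PBS 11 and PBS 12, and 39.7, 37.4 and 57.2 CPM in METH 1, METH 2 and METH 3. All METH libraries lay below all PBS libraries, with METH 3 close to PBS 12. The means were 76.5 ± 12.8 and 44.8 ± 10.8 CPM (SD over n = 3 libraries). The log2 fold change was -0.79 (SE 0.23, adjusted p 0.0348), which is 1.72-fold lower. PSAT1 had the most even PBS levels of the 10 genes, with a highest-to-lowest ratio of 1.40. Its log2 fold change was between -0.97 and -0.67 with each library left out, and the call was lost without METH 1 (adjusted p 0.11) and without METH 2 (adjusted p 0.132).

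MTHFD2, the mitochondrial dehydrogenase and cyclohydrolase of the folate cycle, lies at chr2:74198562-74217565 on the plus strand. It stood at 151, 246 and 128 CPM in PBS 10, 11 and 12 and at 118, 93.9 and 121 CPM in METH 1, 2 and 3. The groups did not overlap, but METH 3 and PBS 12 were neighbours, and PBS 11 stood far above the other 2 PBS libraries. The means were 175 ± 62.7 and 111 ± 14.8 CPM, and the log2 fold change was -0.61 (SE 0.27, adjusted p 0.0843), or 1.53-fold lower. Without PBS 11 it was -0.34 (adjusted p 0.181), and the call was also lost without any METH library (adjusted p 0.101 to 0.234).

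ALDH1L2, the mitochondrial enzyme that oxidises formyl-tetrahydrofolate and yields NADPH, lies at chr12:105019784-105084577 on the minus strand. The levels were low, at 3.80, 4.01 and 1.91 CPM with PBS and 1.03, 1.28 and 2.44 CPM with METH, resting on 88 to 421 reads per library. METH 3 exceeded PBS 12, so the groups overlapped. The means were 3.24 ± 1.16 and 1.58 ± 0.754 CPM, with a log2 fold change of -1.01 (SE 0.40, adjusted p 0.0688, exact permutation p 0.2), 2.01-fold lower. The call held in the fits without PBS 12 (adjusted p 0.0731) and without METH 3 (adjusted p 0.0437), and was lost without each of the other 4 libraries.

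ASNS, which makes asparagine from aspartate and glutamine, gave the plainest case of a difference that hung on 1 library. It lies at chr7:97852118-97872542 on the minus strand, and its levels were 102, 268 and 111 CPM with PBS and 99.1, 90.7 and 113 CPM with METH. PBS 10, PBS 12 and the 3 METH libraries all stood between 90.7 and 113 CPM, and PBS 11 alone was higher. The means were 160 ± 93.7 and 101 ± 11.3 CPM, with a log2 fold change of -0.53 (SE 0.35, 95% interval -1.31 to 0.26, adjusted p 0.185). Without PBS 11 the log2 fold change was -0.08 (adjusted p 0.711), and without PBS 10 it was -0.78 (adjusted p 0.0883).

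The cystine transporter has 2 chains, and the lighter one was called lower with METH while the heavier one was not called. SLC7A11, the light chain that carries cystine in exchange for glutamate, lies at chr4:138164097-138242349 on the minus strand and was the lowest of the 10 genes. It stood at 1.08, 1.65 and 0.44 CPM with PBS and 0.222, 0.462 and 0.505 CPM with METH, resting on 41 to 143 reads in a PBS library and on 19 to 54 in a METH library. METH 2 and METH 3 exceeded PBS 12, and the groups overlapped. The means were 1.06 ± 0.604 and 0.396 ± 0.153 CPM, and the log2 fold change was -1.12 (SE 0.48, adjusted p 0.0777, exact permutation p 0.3). At so low a level the value moves with the number added before the logarithm, to -0.52 with 1 CPM and -1.28 with 0.01 CPM. Without PBS 11 it was -0.74 (adjusted p 0.187). The call was also lost without PBS 10, METH 1 or METH 2 (adjusted p 0.137 to 0.209).

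SLC3A2, the heavy chain that anchors this and several other amino acid exchangers in the plasma membrane, lies at chr11:62856102-62888875 on the plus strand. Its levels were 72.1, 339 and 163 CPM in PBS 10, 11 and 12, and 444, 284 and 208 CPM in METH 1, 2 and 3. PBS 11 stood above METH 2 and METH 3, and the PBS libraries spread 4.70-fold. The means were 191 ± 136 and 312 ± 120 CPM, with a log2 fold change of 0.91 (SE 0.51, 95% interval -0.24 to 2.05, adjusted p 0.133, exact permutation p 0.3). Without PBS 11 the groups no longer overlapped and the log2 fold change was 1.45 (adjusted p 0.032). Without PBS 10 it was 0.34 (adjusted p 0.435).

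The levels of the 2 chains were also set against each other within each library. The log2 ratio of SLC7A11 to SLC3A2, with 0.1 added to the CPM of each, was -5.93, -7.60 and -8.24 in PBS 10, 11 and 12, and -10.43, -8.98 and -8.42 in METH 1, 2 and 3. All 3 METH ratios lay below all 3 PBS ratios, with METH 3 close to PBS 12. The means were -7.26 ± 1.19 and -9.28 ± 1.03, a difference of -2.02, or 4.06-fold, with an exact 2-sided permutation p of 0.1, the smallest that 3 against 3 allows. With each library left out the difference was between -2.51 and -1.36. With 1 CPM added in place of 0.1 it was -1.42, since SLC7A11 is near the added amount. The GC content of the longest transcript is 35.4% in SLC7A11 and 57.4% in SLC3A2. The ratio was not run with the GC trends of the libraries removed, so the part of GC content in it was not tested.

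WARS, the cytosolic tryptophanyl-tRNA synthetase, lies at chr14:100333788-100376805 on the minus strand. It stood at 134, 299 and 211 CPM with PBS and at 130, 113 and 104 CPM with METH. The METH libraries were close to each other and below all PBS libraries, of which PBS 10 was the nearest. The means were 215 ± 82.4 and 115 ± 13.2 CPM, a log2 fold change of -0.82 (SE 0.29, adjusted p 0.0529), or 1.77-fold lower. The range over the fits with a library left out was -1.13 to -0.55, with adjusted p from 0.0124 to 0.138, and the call was lost without PBS 12, METH 1 or METH 2.

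Among the stress regulators, ATF3 had the only call toward a higher level. It encodes a basic leucine zipper factor of the ATF/CREB family that many stresses induce, and lies at chr1:212565334-212620777 on the plus strand. Its levels were 25.8, 74.7 and 34.4 CPM in PBS 10, 11 and 12, and 219, 132 and 77.7 CPM in METH 1, 2 and 3. Every METH library was above every PBS library, METH 3 only just above PBS 11, and each group spread nearly 3-fold by itself, with highest-to-lowest ratios of 2.89 and 2.82. The means were 45.0 ± 26.1 and 143 ± 71.2 CPM, and the log2 fold change was 1.69 (SE 0.45, 95% interval 0.68 to 2.70, adjusted p 0.0269), 3.23-fold higher. It was called with any single library left out, at 1.32 to 2.13 and adjusted p from 0.0121 to 0.0894.

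TRIB3, a pseudokinase that binds ATF4 and restrains it, lies at chr20:362835-397559 on the plus strand. It stood at 58.8, 290 and 147 CPM with PBS and 122, 91.1 and 61.6 CPM with METH. All METH libraries fell inside the PBS range, which spanned 4.93-fold. The means were 165 ± 116 and 91.5 ± 30.0 CPM, with a log2 fold change of -0.63 (SE 0.51, 95% interval -1.77 to 0.52, adjusted p 0.263, exact permutation p 0.5). The value was -0.08 without PBS 11 (adjusted p 0.859) and -1.23 without PBS 10 (adjusted p 0.0299), so the choice of PBS libraries set both its size and its call.

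STC2, a secreted glycoprotein hormone induced by unfolded protein, lies at chr5:173314713-173329503 on the minus strand. It stood at 17.5, 35.7 and 12.7 CPM with PBS and 13.1, 12 and 10.3 CPM with METH. METH 1 was just above PBS 12, and PBS 11 was again the highest. The means were 21.9 ± 12.1 and 11.8 ± 1.41 CPM, with a log2 fold change of -0.75 (SE 0.35, adjusted p 0.091, exact permutation p 0.2), which was -0.34 without PBS 11 (adjusted p 0.228). The call was also lost without any METH library (adjusted p 0.149 to 0.177).

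**Figure D2:**
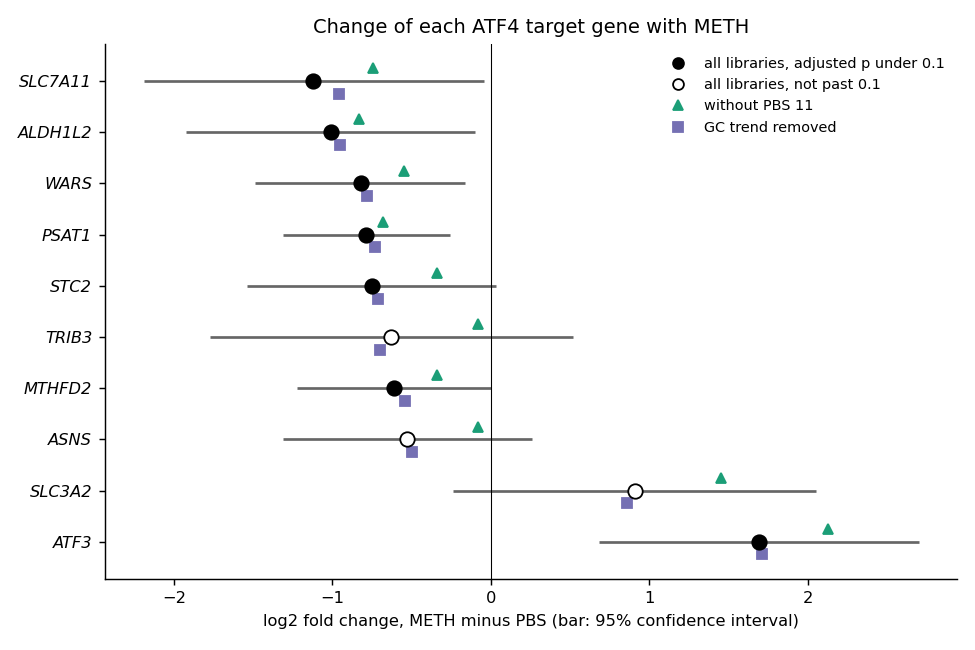
Log2 fold change of each gene, METH minus PBS, with its 95% interval (circles, filled where the adjusted p was under 0.1), and the same without PBS 11 (triangles) or after removal of each library's trend with GC content (squares). The triangles of ASNS and TRIB3 sit at -0.08, those of SLC3A2 and ATF3 move up to 1.45 and 2.13, and the squares stay near the circles.

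PBS 11 stood above the other PBS libraries in each of the 10 genes. It was the highest PBS library in 10 of 10 genes, against 41.8% of all table genes. Its log2 level stood above the mean of the other 2 PBS libraries by a median of 1.19 over the 10 genes, from 0.33 in PSAT1 to 1.64 in SLC3A2 and TRIB3, against a median of 0.11 over the table. PBS 11 was also the highest PBS library for all 8 other ATF4 target genes of a longer list in the table, for all 10 targets of the ATF6 and XBP1 arm of the unfolded protein response, and for all 7 amino acid transporters. The same held for 11 of 12 genes of the STC, TRIB and ATF families with FOS and JUN factors. It also held for 7 of 9 antioxidant targets of the factor NRF2. Lists of enzymes close to the 10 genes did not share this order, since PBS 11 was the highest PBS library in 5 of 9 serine, glycine, proline, asparagine and transsulfuration enzymes, in 3 of 9 aminoacyl-tRNA synthetases and in 1 of 8 one-carbon folate enzymes, of which it was the lowest in 4. No METH library was the highest of its group in all 10 genes. METH 3 was the highest in 5, ASNS, PSAT1, MTHFD2, ALDH1L2 and SLC7A11, with 35.4 to 47.0% transcript GC. METH 1 was the highest in the other 5, SLC3A2, WARS, TRIB3, ATF3 and STC2, with 46.7 to 60.9%. METH 2 was the highest in none, against 28.2% of the table. The part of GC content in this split was not tested.

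**Figure D3:**
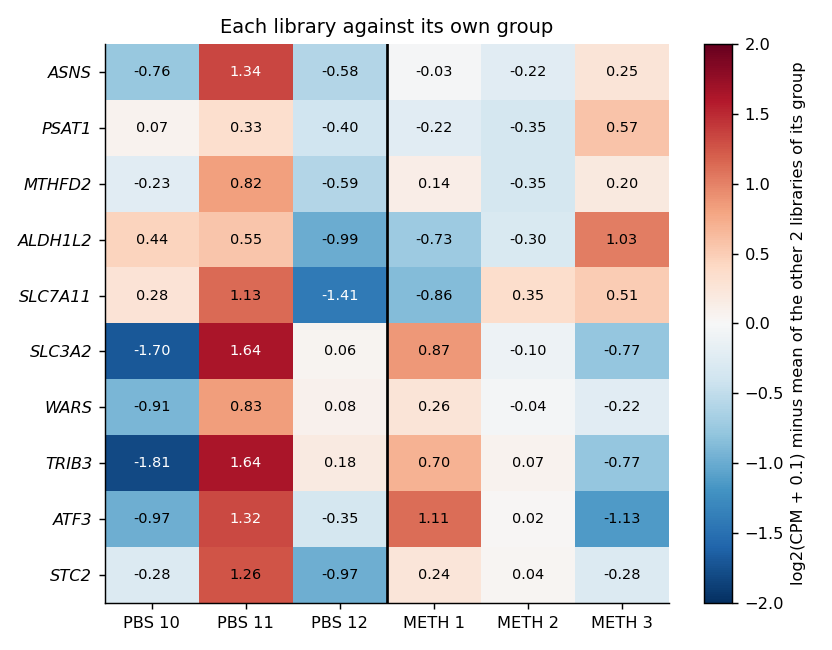
Each library against the other 2 of its own group, as the difference in log2(CPM + 0.1) (red higher, blue lower), for the 10 genes. The PBS 11 column is red in every row, from 0.33 to 1.64, and the bluest cells are those of PBS 10 for TRIB3 (-1.81) and SLC3A2 (-1.70).

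Libraries of both groups differed in how their levels followed GC content. Over 3618 table genes whose mean level reached 1 CPM, the deviation of a library from its group mean had a rank correlation with transcript GC of -0.65 in PBS 10, 0.31 in PBS 11, 0.57 in PBS 12, 0.40 in METH 1, 0.32 in METH 2 and -0.52 in METH 3. The correlation of the difference between the groups with GC was 0.06. The part of GC content in the results was not tested beyond the removal described next. Transcript GC of the 10 genes ran from 35.4% in SLC7A11 to 60.9% in TRIB3, with a median of 46.9% against 50.1% in the table. After removal of each library's GC trend, PBS 11 was still the highest PBS library in 10 of 10 genes, the 6 lower genes and ATF3 kept their calls, and SLC3A2 was called higher as well (0.86, adjusted p 0.0768).

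**Figure D4:**
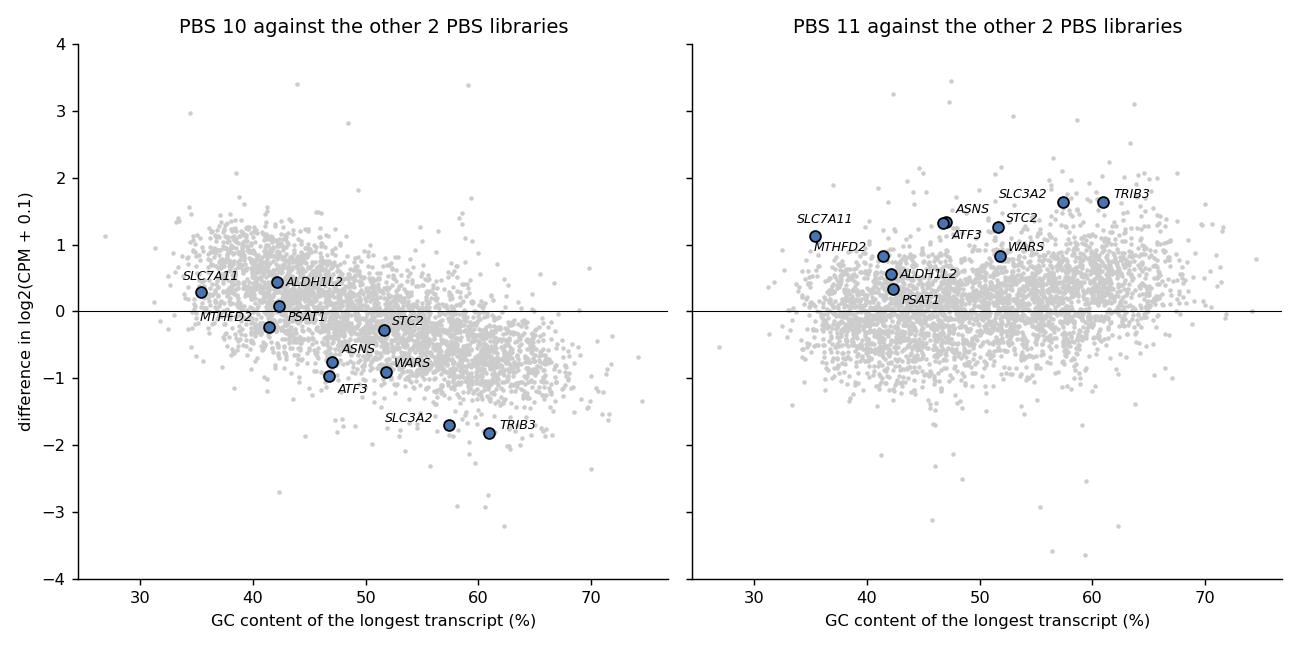
Difference of PBS 10 (left) and PBS 11 (right) from the other 2 PBS libraries in log2(CPM + 0.1), against the GC content of the longest transcript, for table genes (grey; 6 genes lie outside the plotted range) and the 10 genes (blue). PBS 10 declines with GC, and among the 10 genes it stands at 0.28 in SLC7A11 (35.4% GC) and -1.81 in TRIB3 (60.9%). With the GC trend removed, which is not plotted, PBS 10 stays below 0 in all of them but ALDH1L2 (0.12), at -1.23 in TRIB3. In PBS 11 all 10 lie above 0 at any GC content.

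Levels per exonic length put the 10 genes in an order. In the PBS-treatment group TRIB3, SLC3A2, ASNS, MTHFD2, PSAT1 and WARS had means from 33.7 to 48.1 CPM per kb, and neighbours in that order differed by less than the SD of the higher one, 5.84 to 33.9 CPM per kb. ATF3 followed at 11.1 ± 6.46, STC2 at 3.58 ± 1.98, ALDH1L2 at 0.381 ± 0.136 and SLC7A11 at 0.110 ± 0.0626 CPM per kb. In the METH-treatment group SLC3A2 led at 60.3 ± 23.3 CPM per kb, and ATF3, at place 7 with PBS, came next at 35.4 ± 17.6 CPM per kb, followed by TRIB3 at 26.6 ± 8.74 CPM per kb. ATF3 and TRIB3 differed by less than the SD of ATF3. MTHFD2, ASNS, PSAT1 and WARS followed between 18.2 and 22.8 CPM per kb, and STC2, ALDH1L2 and SLC7A11 again came last, at 1.93, 0.186 and 0.0411 CPM per kb. Per length, the heavy chain of the cystine transporter was far above the light chain in every library, with 13.9 against 0.112 CPM per kb in PBS 10, where the gap was smallest.

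Reads of several of these genes may be shared with other transcripts. ASNS lies within the span of a transcript on the same strand, AC079781.5, and ALDH1L2, MTHFD2, SLC7A11 and WARS overlap genes on the opposite strand, among them SLC7A11-AS1 and WDR25. ASNS, MTHFD2, PSAT1 and WARS also have pseudogenes elsewhere in the genome. None of these transcripts was in the table, and how the authors' counting split such reads is not given in the sources used here.

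The genes whose pattern over the 6 libraries was most like that of the 10, each turned to its own direction, were ELMO1, KCTD2, FRMD5, OSBP2 and MARCH4. Their Pearson r with the mean pattern was 0.992, 0.988, 0.988, 0.986 and 0.983 over 6 libraries, ranked among 3616 genes. Turned in this way, the mean pattern rises with METH. Each named gene was called higher with METH, with log2 fold changes of 1.3, 0.64, 1.11, 0.51 and 0.68. Each was also lowest in PBS 11 among the PBS libraries. They thus ran opposite to the 8 of the 10 genes that were lower by sign. All points share the same 6 libraries, and since the direction of each gene was set from these data the r is a description.

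Around the 10 genes, longer lists of the same pathways were read in the table, 73 genes of 227 listed, with 37 called lower and 20 higher. They are chosen lists within a selected table, so the counts are to be read beside the 35.8% and 33.3% of all genes. Of 21 regulators of the integrated stress response, 4 were in it, 2 called lower and 2 higher, against 1 of each without PBS 12, METH 1 or METH 2. EIF2AK3, the kinase PERK that senses unfolded protein, rose by 2.18 on the log2 scale (adjusted p 0.00371), from 7.24, 5.01 and 3.53 CPM with PBS to 22.1, 26.4 and 21.5 CPM with METH. ATF5, a relative of ATF4 that is translated in the same way, changed by -1.42 (adjusted p 0.0103), from 15.2, 26.4 and 24.5 CPM to 9.04, 8.21 and 6.71 CPM. Neither gene's groups overlapped. PPP1R15A, the phosphatase subunit GADD34 that reverses eIF2 phosphorylation, had 0.98 (adjusted p 0.0964), and EIF2B5, a subunit of the eIF2 exchange factor, had -0.46 (adjusted p 0.0875).

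Of 30 other ATF4 target genes, 8 were in the table, 5 of them called higher and none called lower by limma, with a median log2 fold change of 0.72. None of the 8 had an unadjusted p under 0.05 toward lower, while edgeR with TMM and DESeq2 on the recovered reads each called 3 lower. The 5 higher calls became 1 without METH 1 or METH 2 and 2 without PBS 10 or PBS 12. BBC3, the pro-apoptotic factor PUMA, changed by 1.05, PPP1R15A by 0.98, STBD1, a glycogen-binding protein, by 0.93, and KLHL24 by 0.85. VEGFA, ADM2 and HSPA9 were the 3 that were lower by sign, and only in HSPA9 did the groups not overlap. PBS 11 was the highest PBS library in all 8 genes, those called higher included. The median of these 8 thus had the opposite sign to that of the 10 genes, a difference that was not tested. The 10 also hold genes outside amino acid metabolism, with ATF3 at 1.69, TRIB3 at -0.63 and STC2 at -0.75. None of the 8 had an adjusted p under 0.1 by limma when the adjustment ran over 20000 genes.

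Of the enzymes around the 10 genes found in the table, most were called lower, beside 35.8% of all table genes. Lower calls over the table fell from 1467 to 628 without METH 1 and to 563 without METH 2. Of 9 serine, glycine, proline, asparagine and transsulfuration enzymes in the table (of 29), 7 were called lower, with a median of -0.74, and all 9 were lower by sign. The count was 3 without METH 1 or PBS 12, 2 without METH 2, 4 without METH 3 or PBS 11 and 8 without PBS 10. PRODH, which starts proline breakdown, had -1.91, ASS1 and ASL of arginine synthesis had -1.26 and -0.80, and PYCR3, which makes proline, had -1.12. All 8 one-carbon folate enzymes in the table (of 19) were called lower, with the same median of -0.74, against 3 without METH 1, 2 without METH 2 and 6 or 7 without any other library. Among them were MTR, methionine synthase, at -1.11, TYMS, thymidylate synthase, at -0.89 and SHMT1, the cytosolic serine hydroxymethyltransferase, at -0.74. TYMS also serves DNA synthesis. Of 9 aminoacyl-tRNA synthetases (of 40), 6 were called lower, with a median of -0.51. Without METH 1 none was called by limma (2 had an unadjusted p under 0.05, both lower), without METH 2 only 1 was lower, and without METH 3 or PBS 12 there were 3. Without PBS 11, 4 were called lower and 2 higher. The 6 included the mitochondrial LARS2 (-0.78) and EARS2 (-0.56) and the cytosolic IARS (-0.69). With adjustment over 20000 genes, 2 of the one-carbon folate enzymes stayed called and no gene of the other lists of enzymes did.

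Amino acid transporters went both ways, as did the table as a whole. Of 33 listed, 7 were in the table, with 3 called lower and 3 higher. Of all table genes, 35.8% were called lower and 33.3% higher. Without METH 1 there was 1 lower and 3 higher, and without METH 2 there was 1 of each. SLC1A4 and SLC7A1, carriers of neutral and of cationic amino acids, had -0.87 and -0.74, while SLC7A14 and SLC38A6 both had 0.98. SLC7A1 stood at 43.5, 63.0 and 44.2 CPM with PBS and at 28.8, 26.9 and 33.7 CPM with METH, and its groups did not overlap.

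**Figure D5:**
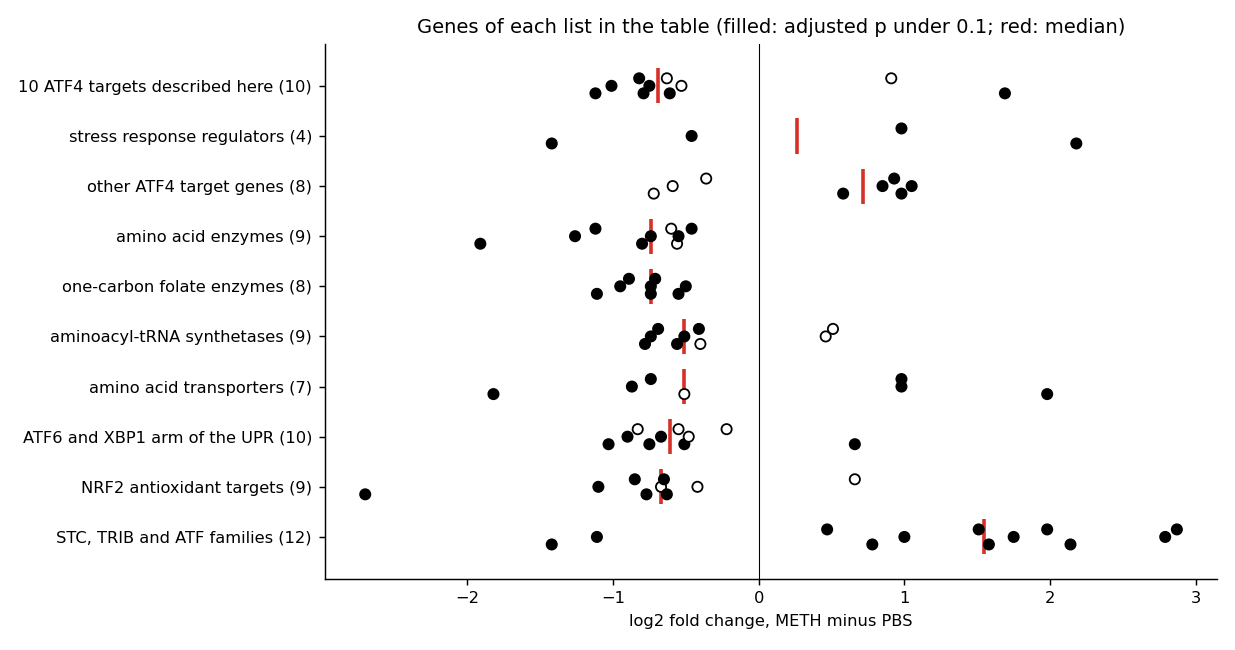
Log2 fold change, METH minus PBS, of every listed gene found in the table, 1 row per list with its number of genes (filled points adjusted p under 0.1, red bars list medians). The one-carbon folate enzymes and the amino acid enzymes all lie below 0, and the STC, TRIB and ATF families reach 2.87.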

How the data were processed

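RNA of SH-SY5Y cells was sequenced on a HiSeq platform, in 3 libraries of the METH-treatment group and 3 of the PBS-treatment group. The authors deposited 1 table of 4101 genes, those they had marked as differing. The aligner, counter and build are not given in the sources used here. The expression columns are headed FPKM, but all values of a column were whole multiples of 1 step to within 0.1 read, whatever the gene's length, so the deposited values were used as CPM. Reads were recovered from the steps. In PBS 10 the smallest value is 2 reads, so its reads rest on the fitted step. The deposited table also holds the authors' group means, fold changes (a ratio), log2 fold changes and p-values of their own comparison, and these comparison columns were not used.

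The groups were compared on log2(CPM + 0.1) with limma 3.58.1 (eBayes with trend, R 4.3.3), with Benjamini-Hochberg adjustment over 4101 genes and a threshold of 0.1, and with exact 2-sided permutation tests. The design had been written for FPKM and was applied to CPM. The fit was run on simulated reads of 4101 genes with 200 changed, where limma recovered 198 with 20 false calls. In that simulation all genes had the same dispersion and libraries of a group differed only in depth, without GC trends. It therefore does not show how the fit behaves on these libraries. Alternatives were other pseudocounts, a filter at a mean of 1 CPM, no trend, median-ratio scaling, a threshold of 0.05, adjustment over 20000 genes, each library left out, edgeR 4.0.16 and DESeq2 1.42.0 on recovered reads and, chosen after seeing the data, removal of GC trends and the fit without PBS 10 and METH 3. Genes were placed with GENCODE release 29 (GRCh38), which held 4093 of the 4101 identifiers, and promoters came from RefSeq GRCh38.p14. The symbol of MARCH4 had become a date in the table and was restored from its identifier. The genes, lists and tests were chosen with earlier results of these data known. All 10 genes are described. From each list, the up to 4 called genes of largest change that reached 1 CPM on average in either group are named, and the 5 genes of most like pattern. Some genes that this rule picks are not reported here. VEGFA, ADM2 and HSPA9 were named after their values were seen. Python 3.11.15, pandas 2.3.3 and matplotlib 3.10.9 were used.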

Additional observations from a re-analysis of the deposited data

How the results depend on the processing

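No paired analysis was possible because the PBS columns carry the numbers 10 to 12, which match no replicate number of the labels, so the groups share none. Of the 10 genes, 6 were called lower and 1 higher. With adjustment over 20000 genes the counts were 0 and 0, at a threshold of 0.05 there was 1 lower, and with the GC trends removed there were 2 higher. With each library left out, the count lower was between 0 and 6 and the count higher between 1 and 2. Over the table, 1467 genes were lower and 1366 higher. These became 191 and 219 with 20000 genes, 783 and 696 at 0.05, and 563 to 1368 and 412 to 1551 with each library left out. Of the fits with a library left out, that without METH 2 called the fewest table genes. Of the listed pathway genes, 37 were lower and 20 higher, against 3 and 7 with 20000 genes, 18 and 13 at 0.05, and 10 to 41 and 10 to 23 with each library left out. The fit without both PBS 10 and METH 3 called 45 of them lower. The causes were not tested. No log2 fold change of the 10 genes changed sign in any alternative, and the ratio of SLC7A11 to SLC3A2 kept its sign with each library left out and under the other settings run. The filter at a mean of 1 CPM leaves no value for SLC7A11. Median-ratio scaling moved the median of all genes by -0.03 on the log2 scale. Depth limits mainly SLC7A11, with 19 to 143 reads per library, and ALDH1L2, and 3 libraries a group limit all 10.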

Other observations

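Other stress programmes in the table were read as chosen lists too. Their counts are to be read beside the 35.8% of all table genes called lower and the 33.3% called higher. Of 18 antioxidant targets of the factor NRF2, 9 were in the table, with 6 called lower and a median log2 fold change of -0.67. HMOX1, the heme oxygenase, stood at 8.0, 68.2 and 54.6 CPM in PBS 10, 11 and 12 and at 5.72, 4.8 and 3.76 CPM in METH 1, 2 and 3, a log2 fold change of -2.70 (SE 0.68, adjusted p 0.0234). The METH libraries were close to each other and PBS 10 lay near them. NQO1, a quinone reductase, had -1.10, GCLM, a subunit of the enzyme that starts glutathione synthesis, had -0.85, and TXNRD1, thioredoxin reductase, had -0.77. SLC7A11 is also known as an NRF2 target. With each library left out, 2 to 7 of the 9 were called lower, with 3 lower and 1 higher without PBS 11. With adjustment over 20000 genes none of the 9 was called.

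Of 25 chaperones and factors of the ATF6 and XBP1 arm of the unfolded protein response, 10 were in the table, with 5 called lower and 1 higher. CRELD2 had -1.03, HSPA5, the chaperone BiP, -0.90, MANF -0.75 and PDIA4 -0.67. HSPA5 stood at 158, 349 and 252 CPM with PBS and 155, 137 and 99.6 CPM with METH. Without PBS 11 or METH 1, 1 of the 10 was called lower, and without METH 2 or METH 3 limma called none lower (1 and 0 had an unadjusted p under 0.05 toward lower). Over the table, 563 and 1144 genes were called lower without METH 2 and without METH 3. With adjustment over 20000 genes none of these 10 was called. In the families of STC2, TRIB3 and ATF3 with the related FOS and JUN factors, 12 of 20 genes were in the table, with 10 called higher and 2 lower, and 7 to 10 called higher with each library left out. Of all table genes, 33.3% were called higher and 35.8% lower. With adjustment over 20000 genes, 5 of the 12 were called higher and 1 lower. FOSL2 had 2.87, FOS 2.79, JUN 2.14 and FOSB 1.98, all above the 1.69 of ATF3. STC1, the relative of STC2, and ATF5 were the 2 lower ones, at -1.11 (adjusted p 0.0988) and -1.42.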
